A study of Bos grunniens x Bos taurus and Bos grunniens with 6 samples.

Results

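The CatSper genes encode the subunits of the calcium channel of the sperm tail. They were sought by symbol, ignoring case, among the 18918 genes of the deposited testis expression table. Of the 9 symbols sought, 8 stood on 1 gene each, namely CATSPER2, CATSPER3, CATSPER4, CATSPERB, CATSPERD, CATSPERG, CATSPERZ and EFCAB9. No row carried the symbol CATSPER1, which encodes a pore-forming subunit, and it was not analysed here. The libraries came from testis tissue of 3 male cattle-yak (C1, C2 and C3, labelled TES5, TES6 and TES7) and 3 male Gannan yak (Y1, Y2 and Y3, labelled Yak8, Yak9 and Yak10), with 1 library per animal. Every animal was 4 years old. The cattle-yak were F1 hybrids of Jersey bulls and Gannan yak cows, and the yak were of the Gannan breed. Cattle-yak and yak came from different counties. The labels give castration for all animals, whereas the study's methods give castration with antibiotic prophylaxis for cattle-yak and euthanasia for yak. Place and collection cannot be told apart from the cross. Reads of both groups were mapped to the yak genome, and its effect on reads from the cattle alleles of the hybrids was not tested.

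CatSper opens in the membrane of the principal piece of the sperm tail and lets calcium in, which drives hyperactivated swimming. The pore is built from CATSPER1 to CATSPER4, each of which contributes a voltage-sensing domain and a part of the pore. Large auxiliary subunits, among them CATSPERB, CATSPERG, CATSPERD and CATSPERE, form a canopy over the pore outside the cell. The small cytoplasmic proteins CATSPERZ and EFCAB9 bind each other beneath it, and EFCAB9 senses calcium through its EF hands. The channel is built during spermiogenesis and is specific to the male germ line. Loss of a pore subunit makes male mice infertile.

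The level of a gene is given as FPKM, the fragments of a gene scaled by its length and by the depth of the library, which allows levels to be compared between genes. Whole fragments were recovered from the FPKM values. The cattle-yak libraries held 11175100 to 11834987 fragments assigned to genes and the yak libraries 12991641 to 13136129, so that 1 fragment on 1 kb stood for 0.0761 to 0.0895 FPKM. The groups were compared over 15042 genes with a mean of at least 0.5 FPKM with limma on log2 (FPKM + 1). A gene was called where its p after Benjamini-Hochberg adjustment lay under 0.05 and its log2 (foldchange) beyond 1 in either direction. All 8 CatSper genes found passed the filter on low values. Over all genes in the fit the median log2 (foldchange) was 0.51, and it was 0.01 after scaling by median-of-ratios size factors. In tissue libraries, fewer cells of a type and less RNA per cell cannot be told apart.

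Every CatSper gene found was lower in cattle-yak. All 8 were called lower, against 20.8% of all tested genes, and with median-of-ratios scaling all 8 were again called lower, against 27.7%. The median log2 (foldchange) of the 8 genes was −2.87, or −3.33 with that scaling. In all 8 genes every cattle-yak animal lay under every yak animal, which held for 30.2% of the tested genes. The mean level left in cattle-yak ranged from 0.959% of the yak mean for EFCAB9 to 27.9% for CATSPERD, with a median of 6.49%.

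**Figure D1:**
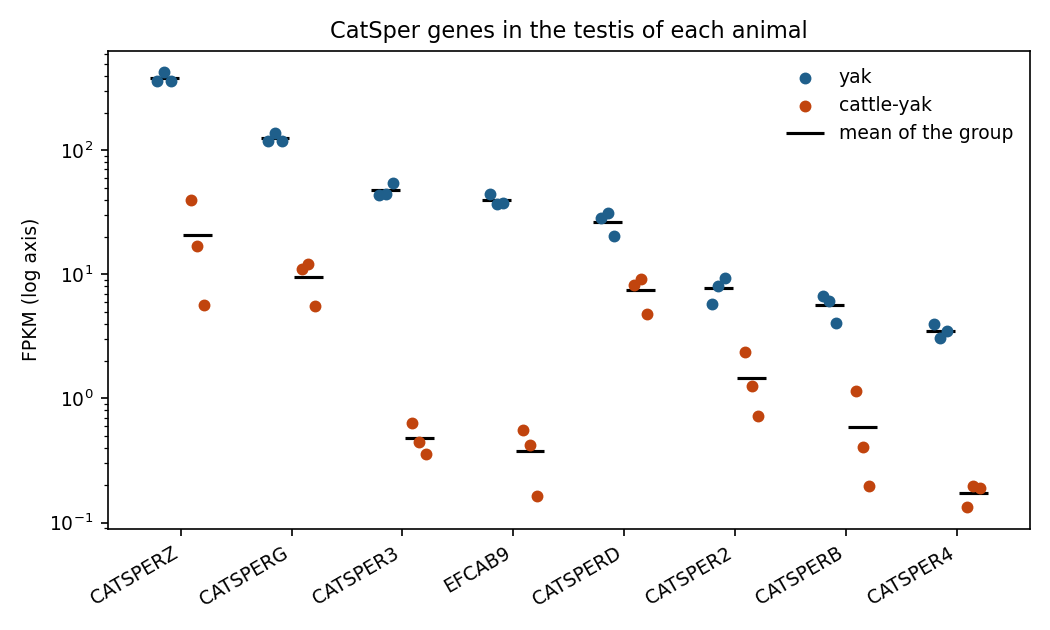
FPKM (log axis) of the 8 CatSper genes in each of 3 yak (left points of a gene) and 3 cattle-yak (right points), ordered by the yak mean, with the mean of each group as a bar. The groups do not overlap for any gene, and CATSPER3 and EFCAB9, at 36.6 to 54.6 FPKM in the yak animals, lie under 1 FPKM in each cattle-yak animal.

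Of the pore-forming genes, CATSPER3 (ENSBGRG00000001979) had 43.3, 44.7 and 54.6 FPKM in Y1, Y2 and Y3 and 0.632, 0.446 and 0.358 FPKM in C1, C2 and C3. The cattle-yak values rested on 9, 6 and 5 fragments. The lowest yak animal stood 68.6-fold above the highest cattle-yak animal, and the ratio of the group means was 99.2. CATSPER3 fell by 5.03 on the log2 scale (limma, standard error 0.15, adjusted p = 9.8e-08), the largest fall of the 8 genes on this scale. Exact Poisson intervals at 95%, which cover counting error only, ran from 0.116 to 0.836 FPKM in C3 and from 0.164 to 0.971 FPKM in C2 and overlapped widely, so a difference between these animals was not detectable at this depth.

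CATSPER2 (ENSBGRG00000012305), in the mouse transcribed already in spermatocytes while CATSPER1, CATSPER3 and CATSPER4 appear in spermatids, had 5.80, 8.04 and 9.30 FPKM in Y1, Y2 and Y3. In C1, C2 and C3 it had 2.36, 1.27 and 0.718 FPKM, from 67, 34 and 20 fragments. The groups lay closer together than for CATSPER3, with the lowest yak animal 2.46-fold above the highest cattle-yak animal. CATSPER2 fell by 1.87 on the log2 scale (standard error 0.27, adjusted p = 2.4e-04 from limma).

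CATSPER4 (ENSBGRG00000005907) was the least abundant of the 8 genes by mean in both groups, with 4.00, 3.05 and 3.46 FPKM in Y1, Y2 and Y3. In C1, C2 and C3 it had 0.133, 0.197 and 0.190 FPKM, which were 5, 7 and 7 fragments. On the log2 scale it fell by 1.94 (limma, standard error 0.15, adjusted p = 7.2e-06), while the group means stood in a ratio of 20.2. The pseudocount of 1 exceeds every cattle-yak value of CATSPER4 and compresses its fold change on the FPKM scale.

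Of the canopy genes, CATSPERG (ENSBGRG00000026648) was the most abundant, with 119.4, 136.9 and 119.0 FPKM in Y1, Y2 and Y3. It had 11.02, 12.01 and 5.51 FPKM in C1, C2 and C3, so that the lowest yak animal stood 9.91-fold above the highest cattle-yak animal. CATSPERG fell by 3.64 on the log2 scale (limma, standard error 0.24, adjusted p = 3.1e-06). These values were well covered, with 326 to 684 fragments in cattle-yak and 7881 to 9142 in yak.

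CATSPERD (ENSBGRG00000001388) kept the largest part of its yak level. It had 28.2, 31.2 and 20.4 FPKM in Y1, Y2 and Y3 and 8.26, 9.20 and 4.83 FPKM in C1, C2 and C3. C1 and C2 lay close together and C3 lower. CATSPERD fell by 1.73 on the log2 scale (standard error 0.24, adjusted p = 1.9e-04 from limma), and its cattle-yak values came from 234, 246 and 134 fragments.

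CATSPERB (ENSBGRG00000016580) had 6.71, 6.13 and 4.04 FPKM in Y1, Y2 and Y3 and 1.15, 0.406 and 0.196 FPKM in C1, C2 and C3. The cattle-yak animals were spread more widely than the yak animals, with a coefficient of variation of 85.9% against 24.95%. C1 stood 5.88-fold above C3, with 42 fragments against 7, and their exact Poisson intervals at 95% did not overlap (0.829 to 1.55 and 0.079 to 0.403 FPKM). CATSPERB fell by 2.09 on the log2 scale (limma, standard error 0.26, adjusted p = 1.0e-04).

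Of the pair of cytoplasmic subunits, CATSPERZ (ENSBGRG00000026686) was the most abundant CatSper gene, with 361.9, 423.4 and 363.4 FPKM in Y1, Y2 and Y3. In C1, C2 and C3 it had 39.4, 16.8 and 5.67 FPKM, from 432, 174 and 61 fragments. C1 was 6.94-fold above C3, the widest ratio between these animals among the 8 genes. The log2 (foldchange) of CATSPERZ was −4.50, with the largest standard error of the 8 genes on log2 (FPKM + 1), 0.54 (adjusted p = 8.1e-05 from limma). It was −5.13 without C1 and −3.84 without C3.

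EFCAB9 (ENSBGRG00000016153), the binding partner of CATSPERZ, had 44.5, 36.6 and 37.7 FPKM in Y1, Y2 and Y3, and 0.556, 0.421 and 0.162 FPKM in C1, C2 and C3. These cattle-yak values were 7, 5 and 2 fragments, and the group means stood in a ratio of 104.3. EFCAB9 fell by 4.88 on the log2 scale (limma, standard error 0.16, adjusted p = 1.4e-07). CATSPERZ exceeded EFCAB9 by 8.14- to 11.6-fold in the yak animals and by 34.97- to 70.8-fold in the cattle-yak animals. This ratio, given as a description after its values were seen, does not depend on depth or scaling, although in C3 its lower term rests on 2 fragments.

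The size of the fall depended on the scale for the genes with the lowest levels. With voom in limma on the recovered fragments, which has no pseudocount on the FPKM scale, all 8 genes were called lower, against 22.7% of all tested genes. On this scale EFCAB9 had the largest fall, a log2 (foldchange) of −6.69 (standard error 0.51), followed by CATSPER3 with −6.55 (0.45). CATSPERZ had −4.61 (standard error 0.44), CATSPER4 −4.25 (0.42), CATSPERG −3.79 (0.22) and CATSPERB −3.55 (0.54). CATSPER2 with −2.53 (standard error 0.39) and CATSPERD with −1.87 (0.25) fell least. The adjusted p from voom and limma lay between 3.1e-07 for CATSPERG and 1.8e-04 for CATSPER2. CATSPER4 thus moved from the smaller falls on log2 (FPKM + 1) to the middle of the order on fragments, whereas CATSPERG, CATSPERZ and CATSPERD, at higher levels, kept nearly the same value.

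**Figure D2:**
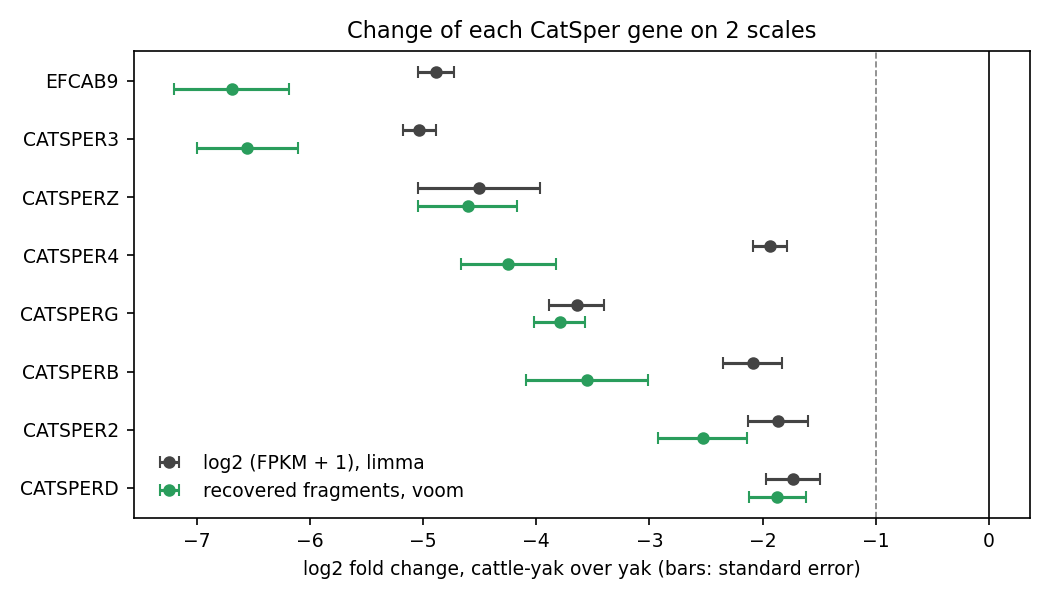
The log2 fold change of each CatSper gene, cattle-yak over yak, on log2 (FPKM + 1) and on recovered fragments with voom, with standard errors as bars, a solid line at 0 and a dashed line at the threshold of −1. All 8 genes lie beyond the threshold on both scales, and the scales part most for CATSPER4, from −1.94 to −4.25.

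The order of the levels also differed between the groups. In yak it ran from CATSPERZ (mean 382.9 FPKM) over CATSPERG (125.1), CATSPER3 (47.5), EFCAB9 (39.6), CATSPERD (26.6), CATSPER2 (7.71) and CATSPERB (5.63) to CATSPER4 (3.51). The ranges of the yak animals overlapped between neighbours only for CATSPER3 with EFCAB9 and for CATSPER2 with CATSPERB. In cattle-yak the order by mean was CATSPERZ (20.6 FPKM), CATSPERG (9.52), CATSPERD (7.43), CATSPER2 (1.45), CATSPERB (0.584), CATSPER3 (0.479), EFCAB9 (0.380) and CATSPER4 (0.173). There the ranges of all neighbours overlapped except CATSPERD with CATSPER2. CATSPER3 and EFCAB9 thus stood above CATSPERD, CATSPER2 and CATSPERB in yak and below them by mean in cattle-yak.

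Summed over the 8 genes, the level was 613.9, 689.9 and 611.98 FPKM in Y1, Y2 and Y3 and 63.5, 40.7 and 17.6 FPKM in C1, C2 and C3. The cattle-yak mean was 6.36% of the yak mean. An exact permutation test (two-sided) gave p = 0.1, the smallest p that 3 animals against 3 allow. The summed level of C1 was 3.60-fold that of C3.

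Shares of this sum do not depend on depth or on scaling between libraries, and they give each gene relative to the sum only. CATSPERZ held the largest part of the sum in every animal, so the other shares also depend on its level. In the yak sum CATSPER3 made up 7.48% ± 1.28, and in the cattle-yak sum 1.37% ± 0.57 (SD, n = 3 each). EFCAB9 went from 6.24% ± 0.97 to 0.943% ± 0.081 (SD, n = 3). CATSPERD took 4.15% ± 0.71 (SD, n = 3) in yak and 20.98% ± 7.31 in cattle-yak, and CATSPER2 1.21% ± 0.29 and 3.63% ± 0.49 (SD, n = 3). In each of these 4 genes the cattle-yak shares lay all above or all below the yak shares. The exact permutation p was 0.1 for each, the smallest possible, and 0.2 after adjustment over the 8 shares. None can thus pass a threshold of 0.05 in this design.

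For the other 4 genes the shares of the groups were not separated in this way, and those of CATSPERZ and CATSPERG in cattle-yak lay on either side of the yak range. CATSPERZ held 62.0%, 41.2% and 32.2% in C1, C2 and C3, against 59.0% to 61.4% in yak (exact permutation test, p = 0.4). CATSPERG held 17.4%, 29.5% and 31.3% in C1, C2 and C3, against 19.4% to 19.8% in yak (exact permutation test, p = 0.4). The shares of CATSPERB and CATSPER4 differed by less than 1 percentage point between the group means (exact permutation p = 0.2 and 0.9). C1, with the highest summed level of the cattle-yak animals, had a CATSPERZ share just above the yak range and CATSPERG just under it.

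Among the 3 pore-forming genes with a row (CATSPER1 had none), CATSPER3 held 80.1% to 81.6% of the FPKM in the yak animals. In the cattle-yak animals it held 20.2% to 28.3%, from 5 to 9 fragments each. CATSPER2 held 10.9% to 14.4% in yak and 56.7% to 75.5% in cattle-yak, and so led these 3 genes in each cattle-yak animal. The exact permutation p was 0.1 for both, and 0.15 after adjustment over the 3 shares. CATSPER4 held 9.86% ± 5.39 in cattle-yak against 6.05% ± 1.29 in yak (SD, n = 3 each, exact permutation p = 0.4), from the few fragments given above.

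**Figure D3:**
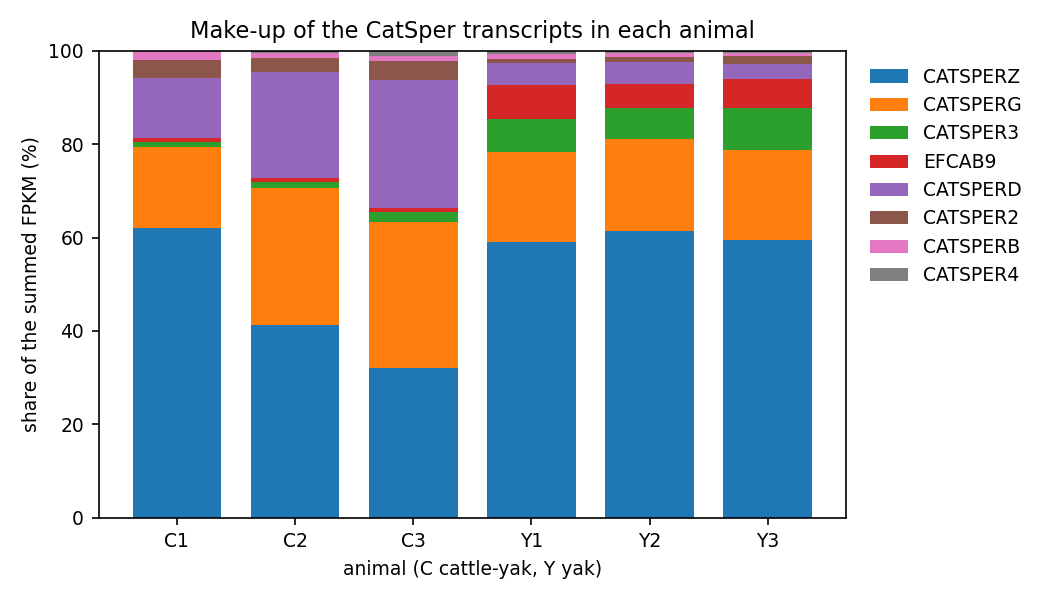
Share of each CatSper gene in the summed FPKM of the 8 genes (%, stacked to 100) in each cattle-yak (C1 to C3) and yak (Y1 to Y3) animal. The 3 yak bars are nearly alike, while in the cattle-yak bars CATSPER3 and EFCAB9 shrink to 2.03% or less and CATSPERD widens to 13.01% to 27.4%.

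The cattle-yak animals differed among themselves. C3 had the lowest value in 7 of the 8 genes, CATSPER4 being the exception, and C1 the highest in 5, where CATSPER4, CATSPERD and CATSPERG were highest in C2. Among all genes called lower, C3 was the lowest cattle-yak animal in 59.2% and C1 the highest in 66.1%. The yak animals had coefficients of variation of 8.14% to 24.95% for the 8 genes, against 20.3% to 85.9% in cattle-yak. For CATSPER3, CATSPER4 and EFCAB9 the cattle-yak values rest on 2 to 9 fragments per animal. Counting error adds to their spread, and their order among the cattle-yak animals is uncertain. Each of the 8 genes was called lower with any single animal left out.

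The stage of the germ cells that carry these transcripts bears on the comparison, so markers of the cell types of the testis were measured in the same fit. Of 12 spermatocyte markers, 3 were called lower and 1 higher, while 20.8% of all tested genes were called lower and 33.4% higher. The 12 markers had a median log2 (foldchange) of −0.46 and a median of 76.6% of the yak level. SYCP1 and DMC1, which act in chromosome synapsis and strand exchange, had log2 (foldchange) values of 0.24 and −0.29 and were not called. The markers called lower were PIWIL1 (−3.32), HSPA2 (−1.94) and MNS1 (−1.12), and SYCP3 was called higher (1.10). With median-of-ratios scaling SYCP3 had 0.49 and was no longer called. All 6 round spermatid markers with a row were called lower (6 had no row), with a median of 1.97% of the yak level left. All 9 elongating spermatid markers with a row were called lower (3 had no row), with a median of 0.458% left. The summed FPKM of the 9 elongating spermatid genes was 105.6, 42.6 and 21.4 in C1, C2 and C3 and 11148 to 13686 in yak, and that of the 6 round spermatid genes 47.1, 25.2 and 10.4 against 664.1 to 702.0. Both sums were highest in C1 and lowest in C3, as was the sum of the CatSper genes. None of these spermatid markers was at 0 in all cattle-yak animals, though SPACA4, a sperm membrane protein, was at 0 in C3. The study's histology found neither round spermatids nor sperm in the cattle-yak tubules, and the source of these remaining fragments was not tested. In contrast, 9 of 11 tested spermatogonia markers, 12 of 12 Sertoli markers and all 6 Leydig markers with a row were called higher, against 33.4% of all tested genes. With median-of-ratios scaling these counts were 7, 8 and 5, against 17.7% of all tested genes called higher, and 6 spermatocyte markers were called lower, against 27.7%. The part of these cell types in the change of the CatSper genes was not tested.

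Relative to the spermatocyte markers, that is with each library shifted by their median, all 8 CatSper genes were still called lower, against 17.7% of all tested genes, with log2 (foldchange) values from −1.49 for CATSPERD to −4.79 for CATSPER3. Relative to the 6 round spermatid markers the sign was reversed. Then CATSPERD (3.65), CATSPER2 (3.52), CATSPER4 (3.45), CATSPERB (3.30) and CATSPERG (1.74) were called higher, against 96.9% of all tested genes. CATSPERZ with 0.88 (standard error 0.45), EFCAB9 with 0.50 (0.48) and CATSPER3 with 0.35 (0.48) did not pass on this scale (adjusted p = 0.053, 0.303 and 0.467 from limma). In these centred fits the same shift enters every gene of a library, and the standard errors of the 8 genes came out alike. They ran from 0.40 to 0.49 with spermatocyte and from 0.45 to 0.52 with round spermatid markers. The p-values of these fits, and the calls resting on them, thus do not measure a gene's own spread between animals. The pseudocount limits how far genes of low level in yak, such as CATSPER2, CATSPER4 and CATSPERB, can fall on this scale. As a percent of the yak mean, CATSPER3 and EFCAB9 lay below the round spermatid median and the other 6 genes above it. The 6 round spermatid markers themselves ran from 0.574% to 7.09%. That range also held CATSPERZ (5.38%) and CATSPER4 (4.95%), and CATSPERG (7.61%) lay just above it. The 12 spermatocyte markers ran from 10.6% to 223.5%. Their range held CATSPER2 (18.8%) and CATSPERD (27.9%), and CATSPERB (10.4%) lay just under it.

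**Figure D4:**
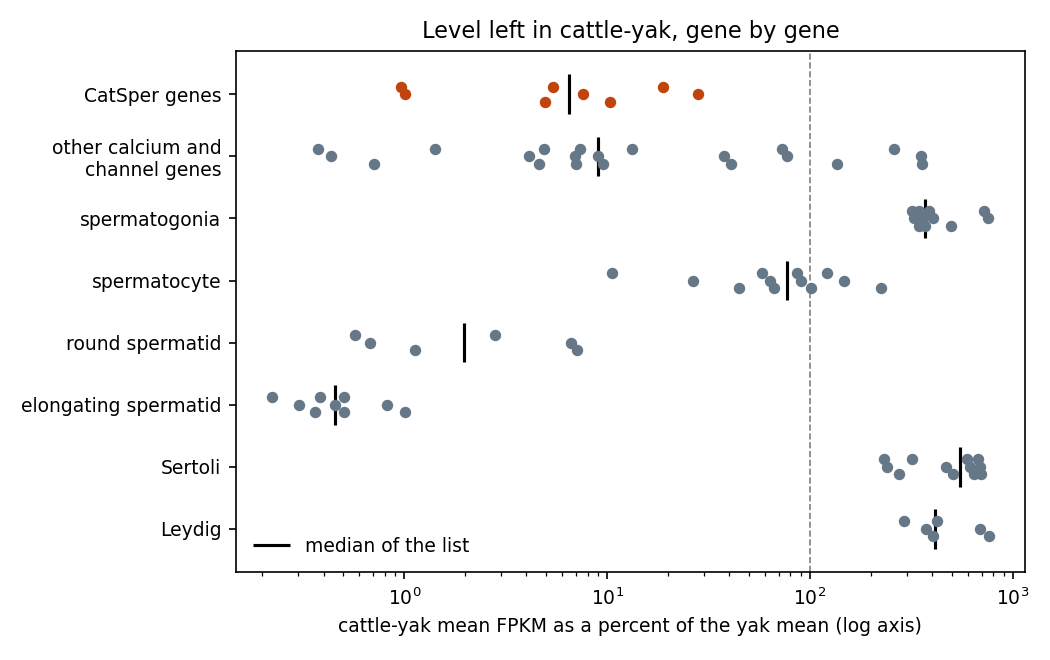
Mean FPKM of each tested gene in cattle-yak as a percent of its yak mean (log axis), for the 8 CatSper genes, the other calcium and channel genes and the marker lists of 6 cell types, with list medians as bars and a dashed line at 100%. The CatSper genes spread from 0.959% to 27.9%, between the round spermatid median of 1.97% and the spermatocyte median of 76.6% for all but CATSPER3 and EFCAB9. The round spermatid markers themselves ran from 0.574% to 7.09%, a range that also holds CATSPERZ and CATSPER4. The spermatocyte markers ran from 10.6% to 223.5%, a range that holds CATSPER2 and CATSPERD.

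A list of 29 other CatSper components and of sperm calcium and channel regulators was examined in the same fit. Of these, 22 had a row and 21 passed the filter on low values. In cattle-yak 15 were called lower (20.8% of all tested genes were) and 3 higher (33.4%), with a list median of −3.03. Other parts of the CatSper complex fell. The canopy subunit gene CATSPERE (ENSBGRG00000009169) had 16.2, 14.4 and 15.2 FPKM in Y1, Y2 and Y3 and 1.78, 0.921 and 0.467 in C1, C2 and C3. CATSPERE fell by 3.03 on the log2 scale (limma, standard error 0.23, adjusted p = 5.9e-06). The log2 (foldchange) was −3.35 for C2CD6, which is needed to bring the channel into the tail membrane, −2.63 for TMEM249, a transmembrane component, and −3.83 for TRIM69, found with the complex (limma, adjusted p = 2.8e-05, 5.6e-07 and 9.7e-05). Relative to the round spermatid markers these 4 genes were called higher, as were 96.9% of all tested genes.

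Of the genes on this list for ion channels, transporters and enzymes that act on voltage, pH or signalling in sperm, KCNU1, LRRC52, SLC9C1, ADCY10, SLC26A8 and ABHD2 fell, while the proton channel gene HVCN1 was called higher and CFTR was under the minimum for the test. KCNU1, the sperm potassium channel SLO3, had 0.283 ± 0.139 FPKM in cattle-yak against 19.9 ± 4.14 in yak (SD, n = 3 each). LRRC52, its auxiliary subunit, had 4.14 to 4.68 FPKM in yak, 2 fragments in C1 and 0 in C2 and C3. SLC9C1, the sperm sodium-proton exchanger, and ADCY10, the soluble adenylyl cyclase, kept 4.13% and 4.87% of the yak mean, and the anion transporter gene SLC26A8 kept 4.63%. ABHD2, the lipid hydrolase through which progesterone acts on CatSper in human sperm, had 19.3 ± 4.86 FPKM in cattle-yak against 213.5 ± 4.32 in yak (SD, n = 3 each). PLCZ1, the sperm factor that starts calcium oscillations in the egg, fell by 5.91 on the log2 scale (adjusted p = 9.8e-08 from limma). CABS1 and CABYR, calcium-binding proteins of the sperm tail, had log2 (foldchange) values of −7.70 and −4.02. PPP3CC, a catalytic subunit of calcineurin, fell by 1.25 (adjusted p = 5.8e-05 from limma).

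The 3 genes called higher were ITPR1, ATP2B4 and HVCN1. ITPR1, the calcium release channel of the endoplasmic reticulum, rose by 1.66 on the log2 scale (limma, adjusted p = 5.4e-06), from 6.35 ± 0.43 to 22.3 ± 2.18 FPKM (SD, n = 3 each), although relative to the Sertoli markers the value was −0.65. ATP2B4, a plasma membrane calcium pump, and HVCN1 had log2 (foldchange) values of 1.28 and 1.32, but with median-of-ratios scaling 0.71 and 0.89, no longer past 1, and relative to the Sertoli markers −1.03 and −0.995. PRKACA, a catalytic subunit of protein kinase A, ATP2A2, a calcium pump of the endoplasmic reticulum, and IQCA1 had 0.43, −0.38 and −0.41 and were not called. Relative to the Sertoli markers they had −1.88, −2.69 and −2.72 and were called lower, as was ATP2B4, and 19 genes of the list were called lower in all, against 76.4% of all tested genes.

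The genes nearest in pattern to the mean of the 8 CatSper genes were sought by Euclidean distance of log2 (FPKM + 1), centred on each gene's mean, over the 6 animals. The 5 nearest were NRM (distance 0.107), TEX2 (0.169), TTLL5 (0.178), ADGB (0.189) and ADCY10 (0.210), with log2 (foldchange) values from −3.07 to −3.22. The gene nearest to each subunit gene was CFAP298 for CATSPER2, THEG for CATSPER3, NR4A2 for CATSPER4, DNAH14 for CATSPERB, DGKD for CATSPERD, MYO3B for CATSPERG, TMEM217 for CATSPERZ and SPATA31E1 for EFCAB9. The distances ran from 0.109 for MYO3B to 0.304 for DGKD. The pseudocount compresses falls to low levels in this distance, so near genes can differ in fold change. By mean, CATSPER4 went from 3.51 FPKM in yak to 0.173 in cattle-yak, and NR4A2 from 9.08 to 1.85.

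The annotation in the table was read for terms shared by these genes, which is not independent of their choice as CatSper subunits. The term CatSper complex stood on 7 of the 8 genes, EFCAB9 being the exception, and on 9 genes of the table in all. The other 2 were CATSPERE and HSPA2, a testis heat shock protein also among the spermatocyte markers, with 84.9 ± 24.7 FPKM in cattle-yak against 320.5 ± 12.8 in yak (SD, n = 3 each). Flagellated sperm motility and sperm capacitation were each annotated to 5 of the 8 genes (CATSPER2, CATSPER3, CATSPER4, CATSPERD and CATSPERZ), out of 48 and 25 genes in the table. Sperm-egg recognition stood on 4 of the 8, out of 9 genes. The gene models ranged from 927 bases for CATSPERZ to 5097 for CATSPERG, so that CATSPERG gave the most fragments in yak, 25020 over the 3 animals against 13927 for CATSPERZ, although its level per length was lower.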

How the data were processed

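Testis libraries of 3 cattle-yak and 3 yak were compared, 1 per animal. The authors deposited FPKM per gene, without scaling between libraries. Per the study's methods, reads were trimmed with Trimmomatic and mapped with HISAT2 to LU_Bosgru_v3.0, FPKM came from Cufflinks and counts from HTSeq. Since the deposited FPKM resolve into whole fragments, it is uncertain whether Cufflinks or a count-based step produced them. The strand setting of the counting is not given in the sources used here. Columns were matched to samples by title, and animals were numbered in accession order, which pairs none of them.

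Whole fragments were recovered from the FPKM steps for 17973 genes, with 100% of their values within 0.03 of a whole number. The search asked for whole numbers, so this match is partly built in. Of the 14298 genes used to find the depth, 99.4% had a whole length. limma 3.58.1 in R 4.3.3 (lmFit, eBayes with trend, two-sided) was run on log2 (FPKM + 1). Exact tests used scipy 1.17.1, and figures matplotlib 3.10.9. Recovery and limma were tested on simulated data. For symbols on several genes, the most abundant was used in the lists. The CatSper genes and all lists were chosen with earlier results of these data known. Named genes were the CatSper genes, the calcium and channel list, marker list genes, and the nearest genes in pattern (5 to the mean, 1 to each gene). Some genes of the calcium and channel list are counted but not reported here by name.

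Each of these choices was varied alone: the pseudocount (0.1 or 0.01), the filter (none, or a mean of at least 5 FPKM), the scaling (median-of-ratios, TPM, quantile, or centring on Sertoli, spermatocyte or round spermatid markers), the limma prior (no trend, or robust), the fold-change threshold (none), voom on fragments, and the omission of each animal. Voom with median-of-ratios size factors was added after the data had been seen.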

Additional observations from a re-analysis of the deposited data

How the results depend on the processing

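The number of CatSper genes called lower was 8 under every pseudocount, scaling, prior and omission of an animal tried, except with a minimum of 5 FPKM, which left 5 genes in the test, all called lower, and with round-spermatid centring, where it was 0. In that centring each library is shifted by 6 spermatid markers that fell themselves. Its p-values, like those of spermatocyte centring, do not measure a gene's own spread between animals. The log2 (foldchange) of the genes was then 3.52 (CATSPER2), 0.35 (CATSPER3), 3.45 (CATSPER4), 3.30 (CATSPERB), 3.65 (CATSPERD), 1.74 (CATSPERG), 0.88 (CATSPERZ) and 0.50 (EFCAB9). In the other alternatives all 149 values of the 8 genes were called lower. Of all tested genes, 20.8% were called lower in the main fit, 27.7% with median-of-ratios scaling and 22.7% with voom. The share was 17.7% with spermatocyte centring and 76.4% with Sertoli centring, so the calls under Sertoli centring say little. With each animal left out in turn, the summed level in cattle-yak was 4.57% to 8.16% of that in yak, the count of CatSper genes called stayed at 8 to 8, and those of the calcium and channel list at 15 to 15 lower and 3 to 3 higher. Of that list, 1 gene was called higher with median-of-ratios scaling and 0 with Sertoli centring, where 19 were called lower. The difference in the share of CATSPER4, 0.037 percentage points, turned to −0.205 for shares of fragments, and with an animal left out it ranged from −0.207 (without C3) to 0.227 (without C1), with −0.0188 without Y2.

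The list medians with an animal left out were 1.75 to 1.79 (spermatogonia), −0.63 to −0.14 (spermatocyte), −4.85 to −4.50 (round spermatid), −8.15 to −7.25 (elongating spermatid), 2.14 to 2.28 (Sertoli) and 1.78 to 2.28 (Leydig). With median-of-ratios scaling the medians were 1.19 (spermatogonia), −1.06 (spermatocyte), 1.66 (Sertoli) and 1.40 (Leydig), and with a pseudocount of 0.1 they were −5.75 (round spermatid) and 2.43 (Sertoli). Depth limits CATSPER3, CATSPER4 and EFCAB9 in cattle-yak, with 20, 19 and 14 fragments over the 3 animals.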
